A study of Mus musculus with 6 samples.

Results

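Transcripts of 9 genes of haem synthesis and erythroid iron uptake were followed in sorted cells of mouse fetal liver at embryonic day 16 (E16) and embryonic day 18 (E18). The genes are Alas2, Alad, Uros, Urod, Cpox, Fech, Tfrc, Slc25a37 and Arhgef3, taken by name from the 54532 genes of the deposited expression table through their Ensembl identifiers. The list was chosen by function and selected on measured values, the E18 against E16 differences of these same 6 libraries, so the members' differences between the days are given as a description and carry no test. All 9 were at or above 1 TPM (transcript abundance corrected for gene length and scaled to a fixed library total) in every library and were among the 17824 genes tested.

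There were 3 libraries per day, lettered A, B and C. Both days came from the same model, CD-1 mice of the genotype Sm22-Cre/ROSA26RYFP, in which Cre made under the Sm22 promoter of smooth muscle and related mesenchyme switches on eYFP for good in a cell and its descendants. Livers were dissociated with collagenase IV and Dispase, eYFP-positive cells were collected on a sorter, and total RNA was sequenced. The labels do not state if 3 libraries of 1 day represent separate animals or pools, and p-values therefore measure only the spread between these samples, which may be technical.

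Haem is built by a chain of enzymes that begins and ends in the mitochondrion. ALAS2, the erythroid form of the first enzyme, joins glycine and succinyl-CoA, the middle enzymes assemble and trim the porphyrin ring in the cytosol, and ferrochelatase (Fech) inserts iron at the end. Erythroid precursors, for which the fetal liver is the main site of growth before birth, obtain that iron by taking up transferrin through the transferrin receptor (Tfrc) and carry it into the mitochondrion through mitoferrin-1 (Slc25a37). Arhgef3 encodes an exchange factor for the GTPases RhoA and RhoB and is listed here as a regulator of transferrin uptake.

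Some of these transcripts carry an iron-responsive element, a short hairpin with a CAGUGN loop to which iron regulatory proteins bind: at the 5′ end it holds back translation, and at the 3′ end it protects the transcript. These hairpins are shown because they tie the first enzyme, the receptor and the iron exporter to cellular iron. A search of GENCODE M21 UTRs (GRCm38, the same assembly as mm10) for a C, a stem of 5 bases, the loop letters CAGTGN and 5 bases that pair with the stem found matches in 2 of the 9 genes, against 159 of 21877 protein-coding genes (0.727%). Alas2 had 1 match in its 5′ UTR and Tfrc had 4 in its 3′ UTR. Among the 57 other haem and iron genes listed for comparison, 3 had a match, the ferritin genes Fth1 and Ftl1 and the exporter Slc40a1. Each sequence below is 27 bases of the transcript, the match with 5 bases on either side, 5′ to 3′ with T for U and with the loop in capitals.
Alas2 5′ UTR, chrX:150547459-150547485, plus strand: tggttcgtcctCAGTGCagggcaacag
Slc40a1 5′ UTR, chr1:45925466-45925492, minus strand: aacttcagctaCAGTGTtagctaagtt
Tfrc 3′ UTR, chr16:32631220-32631246, plus strand: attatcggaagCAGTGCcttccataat
Tfrc 3′ UTR, chr16:32631599-32631625, plus strand: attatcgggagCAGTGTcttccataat
Tfrc 3′ UTR, chr16:32631664-32631690, plus strand: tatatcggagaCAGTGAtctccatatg
Tfrc 3′ UTR, chr16:32631711-32631737, plus strand: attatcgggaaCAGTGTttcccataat
The 4 Tfrc matches lie 888, 1267, 1332 and 1379 bases after the coding region, and the Alas2 match ends 20 bases before it. A match of letters is not a measurement of binding.

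Erythroid promoters often hold GATA motifs, bound by GATA1, and CACC motifs, bound by KLF1. RefSeq promoter sequences (GRCm38.p6) of 250 bases before to 50 bases after a start site were read for 7 of the 9 genes, with 13 start sites in all. The letters AGATAA or TGATAA, on either strand, were found at 1 start each of Alas2, Cpox and Uros, so 3 of 13 start sites had them, and they were present in 18.6% of 32851 RefSeq promoters. The letters CCNCNCCC, on either strand and with overlapping matches counted, were found at 9 of the 13 starts and in 49.5% of all promoters. They are called CACC letters here, but N stands for any base. Matches without CACC itself are therefore counted, such as GGGCGGGG in Alas2 and those of Arhgef3. Arhgef3 had 4 start sites, 0 of them with the GATA letters and 1 with the CACC letters. Because Alas2, Cpox and Uros are the genes with a GATA match, the 250 bases before those starts are shown, 5′ to 3′ on the gene's strand, with both kinds of match in capitals.
Alas2 upstream, chrX:150547167-150547416, plus strand: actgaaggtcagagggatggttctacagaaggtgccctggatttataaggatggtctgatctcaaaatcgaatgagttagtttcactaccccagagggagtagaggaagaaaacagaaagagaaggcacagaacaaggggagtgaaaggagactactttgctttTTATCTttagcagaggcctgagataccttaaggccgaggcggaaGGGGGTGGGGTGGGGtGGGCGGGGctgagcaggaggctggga
Cpox upstream, chr16:58669958-58670207, plus strand: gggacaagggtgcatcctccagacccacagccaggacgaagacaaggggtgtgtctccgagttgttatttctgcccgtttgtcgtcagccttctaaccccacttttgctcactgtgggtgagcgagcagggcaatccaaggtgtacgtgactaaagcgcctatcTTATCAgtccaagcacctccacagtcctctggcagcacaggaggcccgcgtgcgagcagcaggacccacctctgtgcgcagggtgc
Uros upstream, chr7:133702501-133702750, minus strand: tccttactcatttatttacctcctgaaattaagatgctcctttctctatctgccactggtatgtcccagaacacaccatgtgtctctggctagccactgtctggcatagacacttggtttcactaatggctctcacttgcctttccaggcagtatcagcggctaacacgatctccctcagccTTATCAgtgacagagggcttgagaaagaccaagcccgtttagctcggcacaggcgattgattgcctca
The GATA letters begin 86 bases before the start in Alas2, 86 before it in Cpox and 68 before it in Uros. In the part of the Cpox window after the start, which is not shown, further GATA letters begin at base 5 and CACC letters at base 20. The Alas2 window also holds 4 CACC matches, beginning 42, 40, 35 and 26 bases before the start, of which the first 3 overlap. The Uros start is the inner of its 2 RefSeq starts, and at the outer start no GATA letters were in the window. No match in a window says only that those letters are absent from it.

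The sorted samples were mixtures. Reads recovered from the table numbered 21128612 to 22624483 per library at E16 and 14586259 to 18280340 at E18, and the 9 genes rested on 79 to 49967 reads per library. Summed TPM of 19 erythroid markers was 7708, 9380 and 8472 in libraries A, B and C of E16 and 21689, 20624 and 13175 in those of E18. All 19 markers were above 1 TPM in every library. The 4 globin genes among them gave 3157 to 4630 TPM at E16 and 14427, 13757 and 7820 TPM at E18, so E18 C was the lowest of its day. Markers of mesenchyme, the labelled cell type, were present, with 10 genes summing to 326 to 648 TPM at E16 and 1884 to 4968 TPM at E18, the highest in E18 B. Hepatocyte markers (10 genes) summed to 2614, 8832 and 2105 TPM at E16 and 380 to 1001 TPM at E18. Megakaryocyte markers (6 genes) summed to 22.4, 61.4 and 22.6 TPM at E16 and 50.7, 33.1 and 110 TPM at E18. Macrophage markers (6 genes) summed to 41.9 to 56.9 TPM at E16 and 102, 112 and 37.2 TPM at E18. Most of this was Cd68, at 34.6 to 108 TPM, with Csf1r at 0.709 to 3.49 TPM, while Adgre1, C1qa and C1qb were listed at 0 in all libraries. Together 5 endothelial markers stayed between 1.34 and 6.88 TPM. In such bulk samples a difference in the number of cells of a type and a difference in RNA per cell cannot be told apart.

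**Figure D1:**
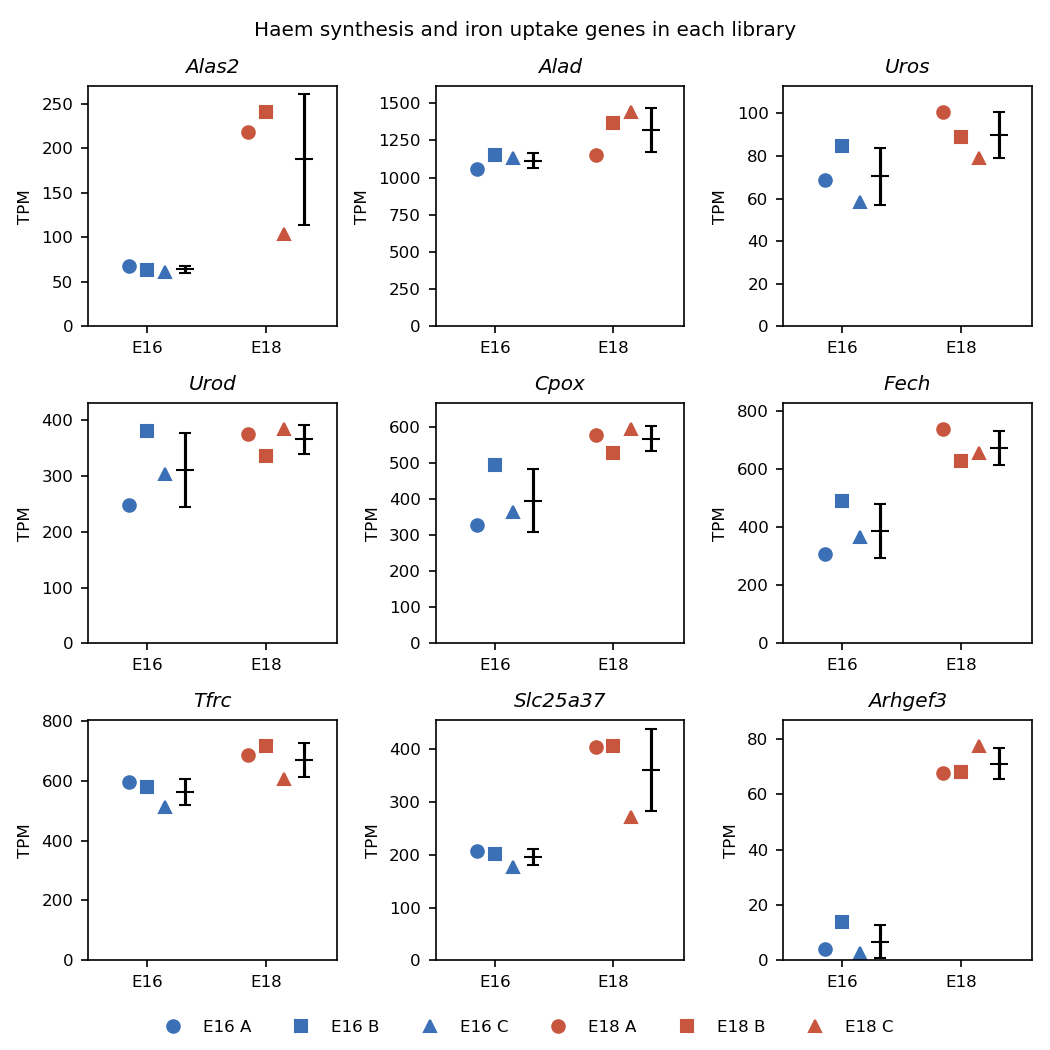
TPM of the 9 genes (vertical axes, each from 0) at E16 (blue) and E18 (red), with circles, squares and triangles for libraries A, B and C and black bars for the mean ± SD of 3 libraries. The days do not overlap for Alas2, Cpox, Fech, Tfrc, Slc25a37 and Arhgef3. E18 C lies below the other E18 libraries for Alas2, Uros, Tfrc and Slc25a37.

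All 9 genes had a higher mean TPM at E18 than at E16. The log2 differences ran from 0.24 for Alad to 3.48 for Arhgef3, with a median of 0.54, beside a median of 0.07 over all genes tested. These are differences of log2(TPM + 1), a scale that understates the change of low genes. The values of the days did not overlap for 6 genes, each higher at E18, whereas 18.4% of all tested genes were higher in every E18 library than in every E16 library and 8.05% were lower. By limma with Benjamini-Hochberg adjustment over all tested genes 1 of the 9, Arhgef3, passed an adjusted p of 0.05, beside 3.47% of all tested genes, 3.08% higher and 0.387% lower. Since the list was drawn up with this contrast in view, nothing is read from these counts. The call of Arhgef3 was absent when E16 A, E16 C, E18 A or E18 B was left out, settings in which 0 genes of the whole table passed, and without E18 C the calls were Alas2, Slc25a37 and Arhgef3.

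The erythroid first enzyme differed more between the days than any other enzyme of the chain that was listed. Alas2 (ENSMUSG00000025270, chrX:150547375-150570638, mm10) was at 67.6, 63.4 and 60.7 TPM in E16 A, B and C and at 218, 241 and 104 TPM in E18 A, B and C. The E16 libraries lay close together, while E18 C was less than the other E18 libraries and still above all of E16. Mean TPM was 63.9 ± 3.46 at E16 and 188 ± 73.3 at E18 (SD, n = 3 each), a log2 difference of 1.45 ± 0.30 (SE). That difference was 1.83 without E18 C and 1.22 without E18 B. Exons of genes on the opposite strand (Apex2 and Mir3620) lie over 15.5% of its exon length, and the strand setting of the counting is not given in the sources used here.

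Alas1, the housekeeping form of the same enzyme and no member of the list, was far lower, with an E16 mean of 12.4 ± 2.65 TPM and an E18 mean of 16.5 ± 2.45 TPM (SD, n = 3 each). Its log2 difference of 0.40 ± 0.22 did not pass (limma adjusted p = 0.364). The ratio of Alas2 to Alas1 TPM was 6.61, 4.13 and 5.21 in libraries A, B and C of E16 and 14.7, 12.5 and 6.73 in those of E18. Alas2 exceeded Alas1 in every library, a comparison made after the values were seen and not tested.

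The enzymes of the middle of the chain differed little between the days. Alad (ENSMUSG00000028393, chr4:62509169-62519918), which condenses the product of ALAS2 into a pyrrole, was at 1055, 1154 and 1134 TPM at E16 and 1153, 1366 and 1442 TPM at E18 in A, B and C. Its days overlapped through E16 B and E18 A, and its log2 difference of 0.24 ± 0.21 (SE) was the smallest of the 9. Uros (ENSMUSG00000030979, chr7:133686243-133710072), which closes the porphyrin ring, was at 68.7, 84.7 and 58.3 TPM at E16 and 101, 89.0 and 79.3 TPM at E18, with a log2 difference of 0.35 ± 0.17. E16 B lay above E18 C for this gene, and without E16 C the Uros difference was 0.22. Urod (ENSMUSG00000028684, chr4:116989965-116994413), which removes carboxyl groups from the ring, was at 249, 381 and 304 TPM at E16 and 376, 336 and 385 TPM at E18, with a log2 difference of 0.25 ± 0.18. E16 B was again inside the E18 range, and the Urod difference was 0.10 without E16 A and 0.41 without E16 B.

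The last listed steps showed days that did not overlap. Cpox (ENSMUSG00000022742, chr16:58670292-58717636), the oxidase that returns the pathway to the mitochondrion, was at 329, 494 and 363 TPM at E16 and 577, 528 and 594 TPM at E18. E16 B came within a small distance of E18 B, and the log2 difference was 0.54 ± 0.19 (SE). Fech (ENSMUSG00000024588, chr18:64452914-64490251), which inserts the iron, was at 307, 489 and 366 TPM at E16 and 738, 627 and 654 TPM at E18. Its means were 387 ± 92.9 and 673 ± 57.9 TPM (SD, n = 3 each), a log2 difference of 0.82 ± 0.21 (SE). For Cpox and Fech, as for Alad, Uros and Urod, the highest E16 library was B. This library had the most hepatocyte marker RNA (8832 TPM) and, within its day, the most erythroid marker RNA (9380 TPM). The part of either cell type in these values was not tested.

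Of the iron uptake genes, the receptor differed little and the mitochondrial carrier more. Tfrc (ENSMUSG00000022797, chr16:32608920-32632794), whose 3′ hairpins are shown above, was at 595, 578 and 512 TPM at E16 and 685, 716 and 605 TPM at E18. The days did not overlap, but E16 A and E18 C were close, and the log2 difference was 0.25 ± 0.16 (SE). Slc25a37 (ENSMUSG00000034248, chr14:69241848-69285112) was at 206, 201 and 178 TPM at E16 and 404, 407 and 271 TPM at E18. As for Alas2, E18 C was the lowest of its day and above every E16 library. The log2 difference of Slc25a37 was 0.86 ± 0.19.

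Arhgef3 (ENSMUSG00000021895, chr14:27114899-27403911) stood apart in size. It was at 3.95, 13.8 and 2.69 TPM in E16 A, B and C and at 67.8, 68.1 and 77.6 TPM in E18 A, B and C, from 122, 414 and 79 reads at E16 and 1354, 1409 and 1940 reads at E18. Every E18 library was well above every E16 library. E18 C was the lowest E18 library for Alas2, Uros, Tfrc, Slc25a37 and the summed globins. For Arhgef3 it was the highest, as it was for Alad, Urod and Cpox. Means were 6.80 ± 6.06 and 71.1 ± 5.57 TPM (SD, n = 3 each), and the log2 difference of 3.48 ± 0.48 (SE) ranged from 3.07 without E16 C to 4.07 without E16 B. E16 B, the highest of its day, also had the most hepatocyte (8832 TPM), megakaryocyte (61.4 TPM) and erythroid (9380 TPM) marker RNA at E16. E18 C had the most megakaryocyte marker RNA of all (110 TPM), while E18 A and B had less of it (50.7 and 33.1 TPM) than E16 B. Hepatocyte marker RNA was lower in every E18 library (380 to 1001 TPM) than in any E16 library. Mesenchyme marker RNA was higher in every E18 library (1884 to 4968 TPM) than in any E16 library (326 to 648 TPM). Erythroid marker RNA was also higher in every E18 library (13175 to 21689 TPM against 7708 to 9380 TPM). The part of these cells in the Arhgef3 values was not tested.

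Within a day some of the 9 genes shared a pattern over the libraries, without a clean separation into sets. After each day's mean log2 level was removed, Slc25a37 followed Alas2 (Pearson r = 0.97) and Tfrc (r = 0.90) across the 6 libraries. Urod, Cpox and Fech followed one another (r = 0.94 to 0.97), while Urod and Alas2 did not move together (r = −0.29). Alad ran against Alas2 (r = −0.59). Uros went in part with both sets (r = 0.66 with Fech and 0.68 with Tfrc). Arhgef3 followed Cpox (r = 0.88) and Fech (r = 0.77) and not Alas2 (r = −0.09). These values describe 6 libraries that share a fixed TPM total and are not tests.

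Because summed erythroid marker RNA was higher at E18, each gene was also set against erythroid markers in its own library. The markers did not all go the same way. In every E18 library 12 of the 19 were higher and 1, Epor, was lower (log2 difference −0.39), beside 18.4% and 8.05% of all tested genes. Epb42, Kel, Gata1, Ermap, Klf1 and Trim58 overlapped between the days. The summed markers were higher at E18 by 2.17 times (ratio of means), more than 7 of the 9 genes. As a log2 ratio to the 19 summed markers, Arhgef3 was higher at E18 by 2.66 and Alas2 by 0.37, the latter with overlapping days. The other 7 were lower, from −0.23 for Slc25a37 to −0.85 for Alad, and the median over the 9 was −0.55. Alad, Uros, Urod, Tfrc and Slc25a37 were lower relative to the markers in every E18 library than in any E16 library. Every E18 marker sum exceeded every E16 sum, so a gene of constant TPM would also be lower in every E18 library, by 1.09 on average. The share of all tested genes that were lower on this scale was not computed, so nothing is read from these counts.

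The choice of marker decided several of these directions. Globins alone were higher by 3.06 times and the 15 other erythroid markers by 1.41 times. Relative to globins, 7 genes were lower in every E18 library and Alas2 differed by −0.11 with overlap. A gene of constant TPM would be lower in every E18 library on this scale too, by 1.58 on average, and the share of all tested genes was not computed. Relative to the 15 markers without globins, Alas2 (0.98), Slc25a37 (0.38) and Arhgef3 (3.26) were higher in every E18 library, Tfrc was lower in every E18 library (−0.24), and Alad, Uros, Urod, Cpox and Fech overlapped. Arhgef3 was higher in every E18 library on each of the 3 scales.

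**Figure D2:**
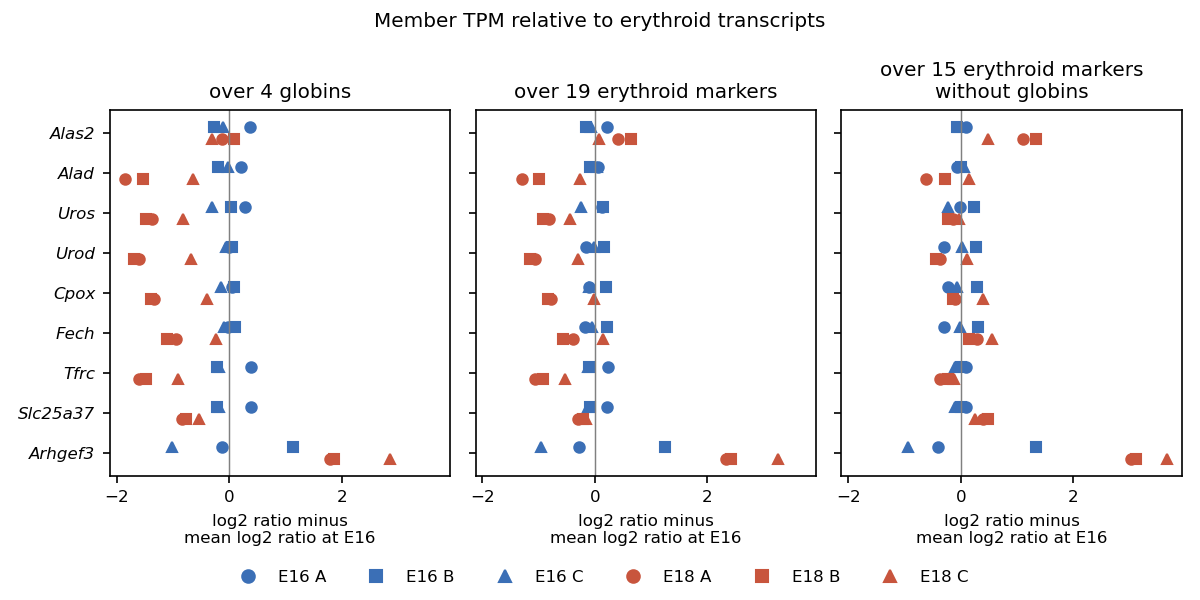
Log2 ratio of each gene's TPM to summed globins (left), all 19 erythroid markers (middle) or the 15 markers without globins (right), minus the mean of the E16 libraries (horizontal axes). Blue and red are E16 and E18, and shapes are libraries A, B and C. Arhgef3 lies to the right at E18 in all panels, while Alad, Uros, Urod and Tfrc lie to the left of 0 on average at E18 in all panels.

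The levels of successive enzymes were compared within each library, a comparison that does not use the difference between the days. In 5 pairs of neighbouring enzymes, with Ppox, the enzyme before ferrochelatase, added to the listed genes, the levels were ordered the same way in 6 of 6 libraries. Each pair gave p = 0.031 by the 2-sided exact sign-flip permutation test, the smallest that 6 libraries allow, and adjusted p = 0.031 over the 5 pairs. Genes of clearly different level tend to keep their order in similar libraries, and how often other gene pairs do so was not examined. These p-values therefore say only that each order was constant here, and nothing particular to the pathway is read from them. The means of log2 ratios below are of TPM + 1.

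Alas2 and Uros were the low steps and Alad the high one. Alad exceeded Alas2 by 3.50 ± 0.83 on the log2 scale (SD, n = 6), with a mean of 4.10 at E16 and 2.89 at E18. Uros was at 80.1 ± 15.1 TPM over the 6 libraries, and Urod exceeded it by 2.07 ± 0.22. In turn Cpox exceeded Urod by 0.49 ± 0.16, the smallest gap. Ppox was below Cpox by −1.06 ± 0.36, and Fech exceeded Ppox by 1.16 ± 0.39. Exons of B4galt3 on the opposite strand lie over 17.5% of the Ppox exon length, so both ratios with Ppox carry the same doubt about strand as Alas2. All 5 directions also held in every library with reads per kb of each gene's longest principal transcript, a length chosen after the data were seen, where Alad exceeded Alas2 by 3.86. Transcript levels do not measure enzyme activity.

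**Figure D3:**
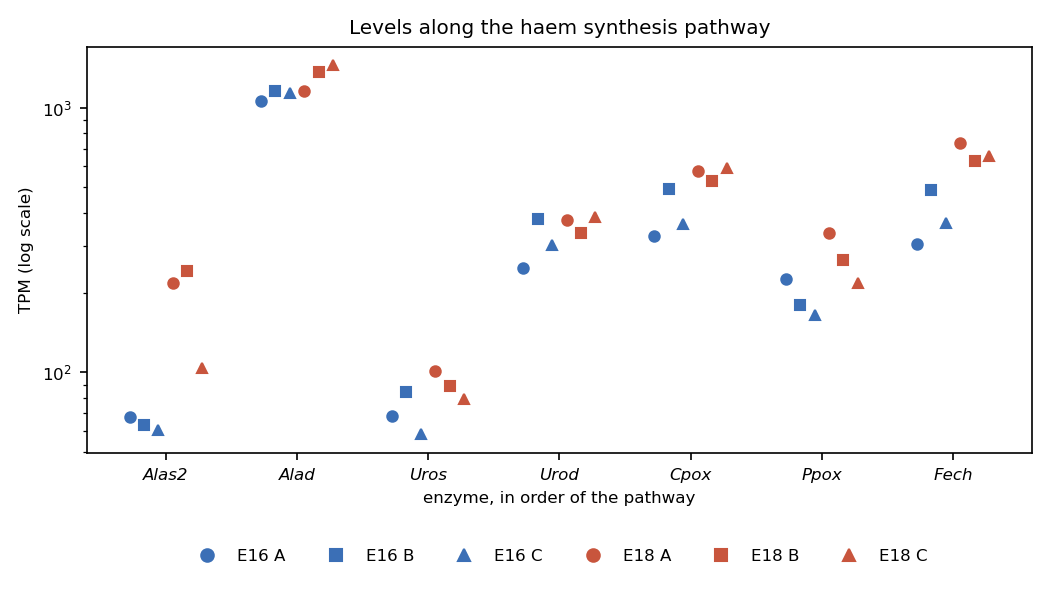
TPM (log scale, vertical axis) of 7 enzymes in pathway order (horizontal axis) in E16 (blue) and E18 (red) libraries A (circles), B (squares) and C (triangles). Alad is the highest of the enzymes drawn in every library, and Alas2 and Uros are the low ones, with Alas2 above Uros in the E18 libraries.

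Other genes of haem and iron handling were placed in 5 lists of 57 genes, of which 52 were tested. By limma 0 of them rose and 1 fell, beside 3.47% called over all tested genes, and voom on recovered reads called 4. An unadjusted p under 0.05 was reached by 13 of the 52 (25%), beside 20.9% of all tested genes. Their median log2 difference was 0.06 beside 0.07 over all genes, and 11 were higher and 7 lower in every E18 library, beside 18.4% and 8.05% of all genes. The gene that fell was Slc40a1 (ferroportin, the iron exporter), whose 5′ hairpin is shown above. It was at 35.7, 40.1 and 43.6 TPM at E16 and 25.2, 20.4 and 24.4 TPM at E18, so all E18 values lay below all E16 values. On the log2 scale it fell by 0.75 ± 0.15 (SE), with a limma adjusted p of 0.0486. This call sat at the threshold: the adjusted p ran from 0.0634 without E18 C to 0.154 without E16 C when single libraries were left out, and from 0.00552 (array weights) to 0.9996 (summed erythroid markers as covariate) over all alternatives.

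In haem synthesis 11 other genes were tested and 0 passed (3 at an unadjusted p under 0.05). Abcb10, a mitochondrial transporter that stabilises mitoferrin-1, was at 197, 227 and 177 TPM at E16 and 341, 364 and 279 TPM at E18, with E18 C again the lowest of its day. Its log2 difference was 0.71 ± 0.16 (limma adjusted p = 0.059), and opposite-strand exons of Gm45890 lie over 10.3% of its exon length. Fam210b, a mitochondrial protein of erythroid iron handling, differed by 0.65 ± 0.24 (limma adjusted p = 0.177), and by 0.37 without E16 A. The enzyme Ppox differed by 0.51 ± 0.20 (limma adjusted p = 0.205). Tmem14c, a porphyrin carrier, was the most abundant of this list, and with Slc25a38, the glycine carrier, it overlapped between the days.

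Among 7 genes of haem export and breakdown 0 passed (1 at an unadjusted p under 0.05). Flvcr1, a haem exporter, was at 24.0, 20.7 and 27.2 TPM at E16 and 16.0, 14.2 and 16.1 TPM at E18, so the days did not overlap, with a log2 difference of −0.60 ± 0.17 (limma adjusted p = 0.0943). Blvrb, a biliverdin reductase abundant in red cells, differed by 0.44 ± 0.19 (limma adjusted p = 0.249). The haem oxygenase Hmox1 was at 0.93 to 5.50 TPM over the libraries. Flvcr2, a related transporter, was at 2.15 to 3.18 TPM. Exons of A230020J21Rik on the opposite strand lie over 15.6% of the Flvcr1 exon length, with the same doubt about strand as for Alas2.

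In the transferrin cycle apart from the receptor 10 of 13 listed genes were tested and 0 passed (3 at an unadjusted p under 0.05). Of these 10 log2 differences 4 were above 0 and 6 below, with a median of −0.09. Slc11a2, which moves iron out of the endosome, was at 87.6, 69.0 and 76.6 TPM at E16 and 62.3, 51.5 and 58.7 TPM at E18, a log2 difference of −0.43 ± 0.14 (limma adjusted p = 0.141). Steap3, the endosomal iron reductase, was at 137 ± 2.50 and 143 ± 7.36 TPM (SD, n = 3 each). Exoc6, Snx3 and Vps35, which help the receptor recycle, each overlapped between the days. Transferrin itself (Trf), a product of hepatocytes, was at 7.90, 36.7 and 6.65 TPM at E16 and 2.25 to 3.98 TPM at E18 (limma adjusted p = 0.159), and its highest library, E16 B, was also the highest for hepatocyte markers. Cybrd1, a ferric reductase, was at 0.878 to 2.55 TPM at E16 and 3.27, 9.55 and 4.20 TPM at E18 (limma adjusted p = 0.143), and the zinc and iron carrier Slc39a14 differed by −0.56 ± 0.33 (limma adjusted p = 0.40). Without E16 B the log2 difference was −1.004 for Trf, against −1.74 with all libraries, and −0.36 for Slc39a14. Exons of Gm20425 on the same strand lie over 63.5% of the Trf exon length, and the counting of reads there was not examined.

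In iron storage, export and regulation 14 of 16 listed genes were tested, and Slc40a1 was the 1 that passed. Erfe, the erythroid hormone that lowers hepcidin, was at 27.6, 10.96 and 22.9 TPM at E16 and 50.8, 48.3 and 43.0 TPM at E18. Its log2 difference was 1.26 ± 0.32 (limma adjusted p = 0.0742). Exons of Ilkap on the opposite strand lie over 12.7% of the Erfe exon length, so the doubt about strand applies here too. Aco1, whose protein without its iron-sulphur cluster is iron regulatory protein 1, differed by 0.82 ± 0.23 (limma adjusted p = 0.0964), while Ireb2, which encodes iron regulatory protein 2, was at 34.0 ± 4.42 and 34.6 ± 4.16 TPM (SD, n = 3 each). Heph, a ferroxidase, was at 0.423 to 0.747 TPM at E16 and 2.16, 7.11 and 2.65 TPM at E18 (limma adjusted p = 0.102), highest in E18 B as were the mesenchyme markers. Among 10 genes of iron-sulphur clusters and mitochondrial iron 0 passed (1 at an unadjusted p under 0.05), with a median of −0.10. The examples taken by smallest p were Isca2 (0.43 ± 0.17), Nfs1 (−0.26 ± 0.12), Lyrm4 (−0.65 ± 0.33) and Isca1 (0.23 ± 0.16), with limma adjusted p from 0.214 to 0.483. Without E18 A the Lyrm4 difference was −0.34, and without E16 A that of Isca1 was 0.11. Slc25a28, the housekeeping counterpart of Slc25a37, was at 51.0 ± 7.38 and 47.5 ± 2.92 TPM (SD, n = 3 each) with overlapping days.

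**Figure D4:**
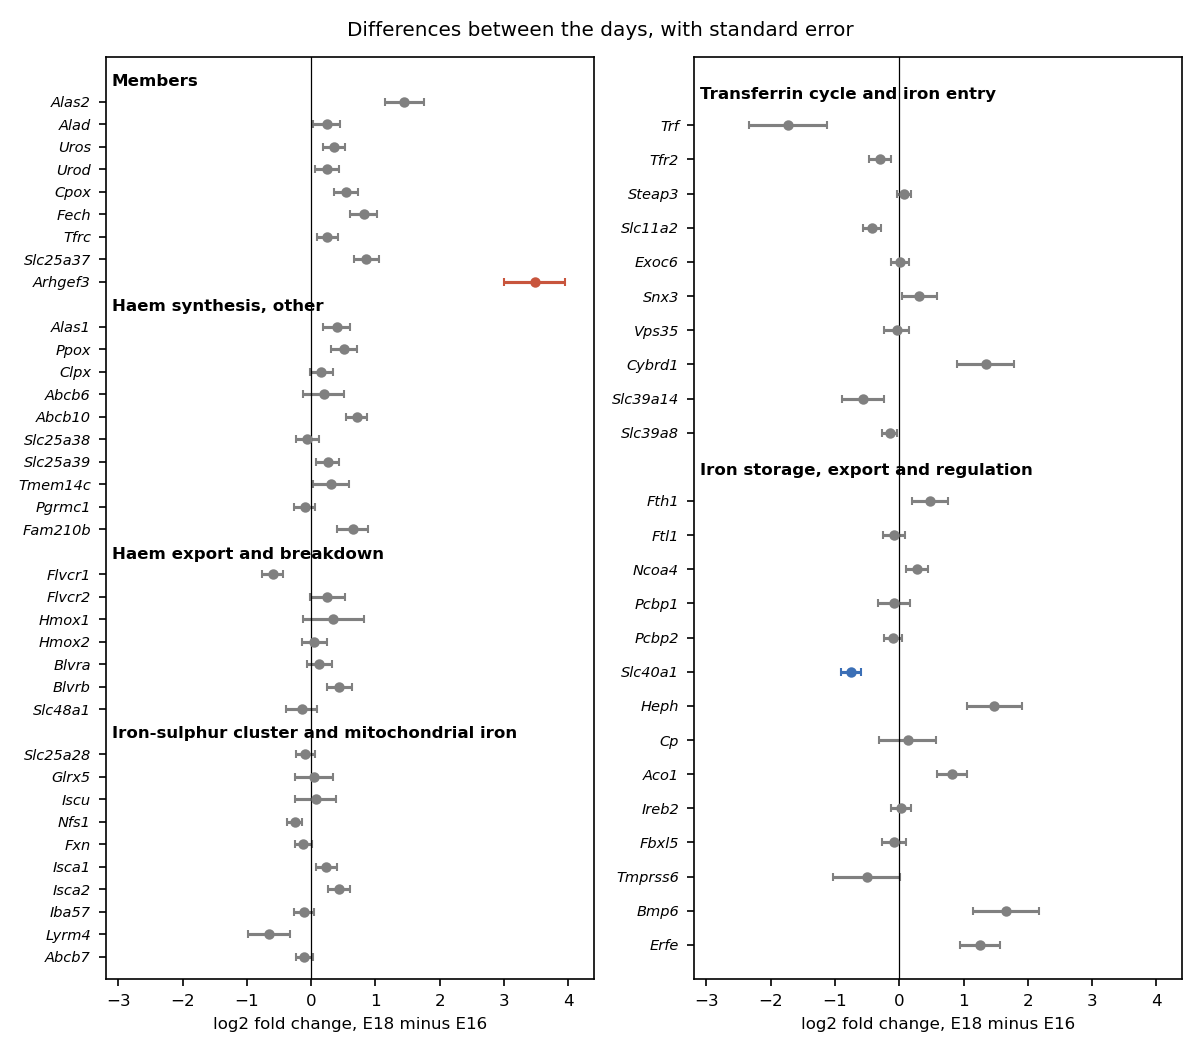
Log2 fold change of E18 minus E16 (horizontal axes) with its standard error for the 9 genes, headed Members, and for 51 tested genes of 5 haem and iron lists. Red and blue points passed the limma threshold higher and lower at E18, and grey points did not. Arhgef3 lies at 3.48 and Alas2 at 1.45, and Slc40a1 at −0.75 is the 1 blue point.

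Other exchange factors that act on RhoA were set beside Arhgef3. Of 16 listed, 15 were tested, 1 rose and 0 fell, beside 3.08% of all tested genes called higher and 0.387% called lower. An unadjusted p under 0.05 was reached by 7 of the 15, beside 20.9% of all tested genes, and the median log2 difference was 0.30 beside 0.07. Arhgef12 rose from 30.1, 33.1 and 31.7 TPM at E16 to 48.4, 55.8 and 48.1 TPM at E18. All its E18 values lay above all its E16 values, as for 18.4% of all tested genes. On the log2 scale it rose by 0.66 ± 0.13 (limma adjusted p = 0.0432). That call was lost when any single library was left out (adjusted p from 0.0553 without E18 C to 0.130 without E18 A), and over all alternatives the adjusted p ran from 0.00509 to 0.9996. Arhgef17 (2.12 ± 0.45), Arhgef40 (0.90 ± 0.21) and Arhgef10 (1.44 ± 0.39) did not pass, with limma adjusted p of 0.0511, 0.0602 and 0.0862. Each of these 3, like Arhgef12, was highest in E18 B, the library with the most mesenchyme marker RNA (4968 TPM), which Arhgef3 was not. The part of mesenchyme RNA in these values was not tested.

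Genes with the most similar pattern were sought among 7612 tested genes with a mean of at least 10 TPM, by Pearson correlation of log2(TPM + 1) over the 6 libraries. The closest to Alas2 were Pcf11, Hmg20b, Zfp1, Samd11 and Hdac5, with r = 0.99 for each. Like Alas2, each of them had E18 C as its lowest E18 library, for example Hmg20b at 21.4, 20.3 and 13.7 TPM in E18 A, B and C against 10.1 to 11.5 TPM at E16. The closest to Arhgef3 were Gfod1, Calcrl, Socs4, G2e3 and Golga7, with r of at least 0.99 for each. Each had E16 B as its highest E16 library, for example Gfod1 at 3.21, 7.60 and 2.36 TPM at E16 and 25.6, 24.7 and 25.7 TPM at E18. With 6 libraries in 2 groups, high correlations are common among genes that differ between the days, and these values are descriptions over points that share their library totals.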

How the data were processed

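RNA was measured in 6 libraries of sorted fetal liver cells, 3 at E16 and 3 at E18. The authors deposited 1 table of TPM values for 54532 genes, and all 6 of its columns were used (0 left out). The submitters' processing notes name HTSeq 0.5.4p3, HISAT2 2.1.0, FastQC 0.11.7, Bowtie and the mm10 build, with no roles, and the libraries were made with a stranded total RNA kit per the labels' protocols. For annotation release and strand setting, nothing is given in the sources used here. Identifiers were matched to symbols for 54409 genes, and of all listed genes only Ahsp, an erythroid marker, was unmatched.

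TPM multiplied by merged exon length (GENCODE M21) gave whole reads within 0.05 for 96.8% to 97.1% of values, from which depth was taken. At 1 TPM a gene of 1 kb rests on 4.41 to 6.83 reads. Genes at TPM of at least 1 in at least 3 libraries were compared as log2(TPM + 1) with limma 3.58.1 under R 4.3.3, fitting an intensity trend, and 2-sided p-values were adjusted over all tested genes by Benjamini-Hochberg. Levels of neighbouring enzymes were compared by an exact sign-flip permutation test, and Python 3.11.15 and Matplotlib 3.10.9 were used. The limma fit was tested on simulated data with known changes.

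The members and lists were chosen with earlier results of these data known. Named genes were all members, Ppox, Alas1, up to 4 genes of smallest p per list and the 5 most similar to Alas2 and Arhgef3. A further gene that this rule names is not reported here, nor are the enzyme pairs it would enter. Slc25a28, Steap3, Ireb2, Tmem14c, Slc25a38, Exoc6, Snx3 and Vps35 were named besides, for their roles, after their values were seen. Alternatives were other pseudocounts, filters, scalings and weights, voom, the letter as block, an erythroid covariate, and each library left out. Same-lettered libraries did not deviate together (r = 0.10 for A, −0.14 for B and −0.12 for C across genes), so letters were not taken as pairs.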

Additional observations from a re-analysis of the deposited data

How the results depend on the processing

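The number of the 9 genes called, 1 as reported, was 2 with quantile normalization and with TPM rescaled without globin, mitochondrial and small RNA genes, 4 with voom and 7 with array weights. It was 0 with the letter as replicate block, with summed erythroid markers as covariate and without a filter, and 0 to 3 when single libraries were left out. Of the 57 other haem and iron genes, 1 was called as reported, 4 with voom and 15 with array weights. It was 0 with pseudocounts of 0.1 and 5, quantile normalization, the replicate block, the erythroid covariate, no filter and no intensity trend, and 0 to 0 when single libraries were left out. The block, the covariate and the missing filter left 0 calls in the whole table. The cause was not tested. The median log2 difference of the 9 genes, 0.54, was 0.13 with the erythroid covariate, where Alas2, Uros and Tfrc were below 0. Relative to summed erythroid markers, where a gene of constant TPM would be lower by 1.09, the median was −0.55. In fits with single libraries left out the median lay between 0.42 and 0.71. All 9 differences were above 0 under each scaling and each library left out. Quantile normalization moved the median of all genes from 0.07 to −0.08. The 5 enzyme orderings were the same under all 11 alternatives. Subsets of the libraries and other pseudocounts cannot change an order that holds in every library. Only the setting with another gene length could have differed. With 3 libraries a day and unknown sampling, intervals beyond these ranges were not estimated, and genes near 1 TPM rest on few reads.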
